A study of Mus musculus with 12 samples.

Results

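Heat shock proteins and their DnaJ cochaperones keep the proteins of a contracting heart folded, and their mRNAs were followed here across hearts from 3 groups of mice. The members were the protein-coding genes whose symbols begin with Hsp90, Hspa, Hspb, Hspd1, Hspe1, Hsph1, Dnaja, Dnajb or Dnajc, together with Cryab, Bag3, Hsf1 and Hsf2, provided that at least 10 counts were recorded in at least 4 libraries. Of 78 protein-coding genes with such symbols 69 met this minimum, against 13470 protein-coding genes that met it in the whole data set. The rule itself uses no difference between groups, but the family was chosen with earlier results of these data known. The 9 genes below the minimum were Dnajb3, Dnajb7, Dnajb8, Dnajb13, Dnajc5b, Dnajc5g, Dnajc6, Dnajc22 and Hspb9. The minimum fell in a wide gap: Dnajb3, just outside, had 81 counts over all 12 libraries, and Hspbap1, just inside, had 1267.

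Sham WT denotes wild-type mice that had a sham operation, TAC WT denotes wild-type mice whose transverse aorta was constricted, and TAC KO denotes constricted mice in which the gene of the long noncoding RNA Nron is knocked out. Each group had 4 poly(A)-selected RNA libraries, made 6 weeks after surgery from 250 ng of total RNA. Constriction of the aorta puts a pressure load on the left ventricle and makes the heart grow. Strain, sex, age and the construction of the knockout are not given in the labels, and a sham-operated knockout group was not analysed here, so the effect of the knockout without constriction cannot be told apart from its effect under it. The labels do not say that the 4 libraries of a group came from separate animals, and if they did not, p-values measure only the spread between these samples, which may be technical.

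Chaperones of the HSP70 family bind exposed stretches of unfolded protein in cycles of ATP hydrolysis, which J-domain proteins (the DnaJ families A, B and C) start and nucleotide exchange factors such as the HSP110 proteins reset. HSP90 takes over late folding intermediates and signalling proteins, and small heat shock proteins hold unfolding chains without using ATP. The inducible members are transcribed through heat shock factor 1, which binds repeats of a short element in their promoters, and cardiac muscle is known for high constitutive levels of the small heat shock proteins Cryab, Hspb6 and Hspb7.

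Stretches upstream of 6 members are shown, chosen with the motif matches known, to set 4 stretches that hold a match beside 2 that hold none. Their mRNAs fell into contrasting patterns: Hspa1a, Hspb1, Hspb6 and Dnajb4 were higher after constriction and lower in the knockout, whereas Hspb7 and Hspb8 were higher after constriction and were not called as different in the knockout. The knockout calls of Hspb6 and Dnajb4 did not hold under every alternative run described below. This pairing of match and pattern comes from the choice of genes, since Bag3, Hspa1l and Hspa4 were also lower in the knockout and held no match. Capitals mark the letters of a pair of inverted heat shock element units, GAANNTTC or TTCNNGAA. Each motif is its own reverse complement, so 1 search covers both strands, and the 2 motifs can overlap each other. The sequences are from RefSeq on mouse build GRCm38.p6 and are written 5′ to 3′ on the gene's strand. None of the bases shown lies in an annotated exon (GENCODE M21).
Hspa1a, minus strand, chr17:34972200-34972329: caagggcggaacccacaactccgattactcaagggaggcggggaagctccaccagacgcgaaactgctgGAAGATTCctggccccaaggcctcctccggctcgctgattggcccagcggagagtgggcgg
Hspb1, plus strand, chr5:135887753-135887882: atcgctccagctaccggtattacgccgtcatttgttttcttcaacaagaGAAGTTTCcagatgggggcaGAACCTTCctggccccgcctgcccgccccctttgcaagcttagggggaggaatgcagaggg
Hspb6, plus strand, second listed start site, chr7:30553112-30553241: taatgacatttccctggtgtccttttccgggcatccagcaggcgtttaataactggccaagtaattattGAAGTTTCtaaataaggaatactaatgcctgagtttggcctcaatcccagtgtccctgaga
Dnajb4, minus strand, second listed start site, chr3:152193846-152193975: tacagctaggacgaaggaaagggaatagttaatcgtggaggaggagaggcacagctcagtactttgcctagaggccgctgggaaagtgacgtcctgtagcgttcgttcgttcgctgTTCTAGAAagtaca
Hspb7, plus strand, chr4:141420649-141420778: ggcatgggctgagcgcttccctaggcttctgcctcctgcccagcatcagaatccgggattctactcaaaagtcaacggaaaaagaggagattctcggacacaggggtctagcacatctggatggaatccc
Hspb8, minus strand, chr5:116422865-116422994: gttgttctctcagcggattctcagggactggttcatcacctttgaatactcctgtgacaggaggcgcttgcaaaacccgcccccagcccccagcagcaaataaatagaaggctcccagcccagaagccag

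The 130 bases shown for Hspa1a and the same stretch of its neighbour Hspa1b differed at 0 positions. The stretches of Hspb6 and Dnajb4 lie inside the annotated gene, between exons, because they belong to start sites downstream of its first. Among all 27025 genes of the promoter table, 14.5% held either motif in the 250 bases upstream of a start site. Among the 55 members with an entry, 14 did (25.5%). Of the 16 members with an entry that were higher in TAC WT than in Sham WT, 9 held a motif (56.2%): Hspa1a, Hspa1b, Hsph1, Dnaja1, Dnaja4, Dnajb4, Dnajc27, Hspb1 and Hspb6. Of the 39 members with an entry that were not called higher there, 5 held one (12.8%): Dnajb6, Dnajc10, Hspb3, Hspd1 and Hspe1. The other 7 members of that 16 held none: Bag3, Hspa1l and Hspa4, which were lower in TAC KO than in TAC WT, and Dnajb1, Dnajb5, Hspb7 and Hspb8, which were not called there. A gene was counted if any of its listed start sites had a match. The first listed start sites of Dnaja4, Dnajb4, Hspb6 and Hspd1 had none. Dnajb6, Hspd1 and Hspe1 held at least 3 alternating units in a row, as 0.514% of all genes did. The matches of Hspd1 and Hspe1 are the same bases, read on opposite strands, and were counted for each gene. Hspa1a and Hspa1b, alike over the stretch shown, were also counted as separate genes. Such a match describes letters in a window and is not a measured binding site. Cryab, Dnajc2, Dnajc5, Dnajc11, Dnajc12, Dnajc18, Dnajc30, Hsf1, Hsp90aa1, Hsp90ab1, Hspa8, Hspa9, Hspa13 and Hspb2 had no entry in the promoter table.

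Library totals ran from 26288519 to 35945770 counts over 54146 gene records. Levels are given in CPM, the counts scaled to a common library total, differences as log2 ratios from 1 edgeR fit of all 12 libraries, and a gene is called at an adjusted p under 0.05 over 15477 tested genes, all 69 members among them. No count was listed for either Nron record in any library, so the target could not check the labels. Summed cardiomyocyte markers stood at 70770 to 80350 CPM in Sham WT, 67990 to 68650 in TAC WT, against 67190 to 72010 in TAC KO, so heart muscle RNA was present in every library. Mitochondrial genes took 20.2 to 22.2% of counts in Sham WT, against 17.4 to 19.8% in TAC WT and 17.96 to 20.7% for TAC KO. GC-rich genes were relatively higher in the knockout libraries: the median deviation of the 20% most GC-rich genes minus that of the 20% least GC-rich was between 0.0955 and 0.382 on the log2 scale in TAC KO, and between -0.135 and -0.0379 in the other 8 libraries. Library TAC KO 1 had the 0.382. Genes with long exons were relatively lower in the knockout libraries. The same measure by exon length, longest 20% minus shortest 20%, was between -0.21 and -0.1215 in TAC KO. It was between -0.0222 and 0.1586 in the other 8 libraries. These tilts and the genotype cannot be told apart.

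Together the share of the members in the library total was 1.17 to 1.22% in Sham WT, 1.57 to 1.696% in TAC WT, against 1.38 to 1.46% in TAC KO, with no overlap between any of the groups. Their summed level was 12090 ± 230 CPM in Sham WT, 16460 ± 554 in TAC WT, against 14170 ± 339 in TAC KO (mean ± SD, n = 4 each). Hspb7 alone gave 21.3% of this sum and the 5 most abundant members gave 58.9%. In these RNAs of mixed heart cells, fewer cells of a type and less RNA per cell cannot be told apart. Small heat shock proteins supplied most of the increase, from 5132 ± 240 CPM in Sham WT to 8182 ± 531 in TAC WT, against 7141 ± 354 in TAC KO. The 24 class C J-domain proteins summed to 969.8 ± 8.20, 1014 ± 4.58 and 950.2 ± 12.4 CPM.

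**Figure D1:**
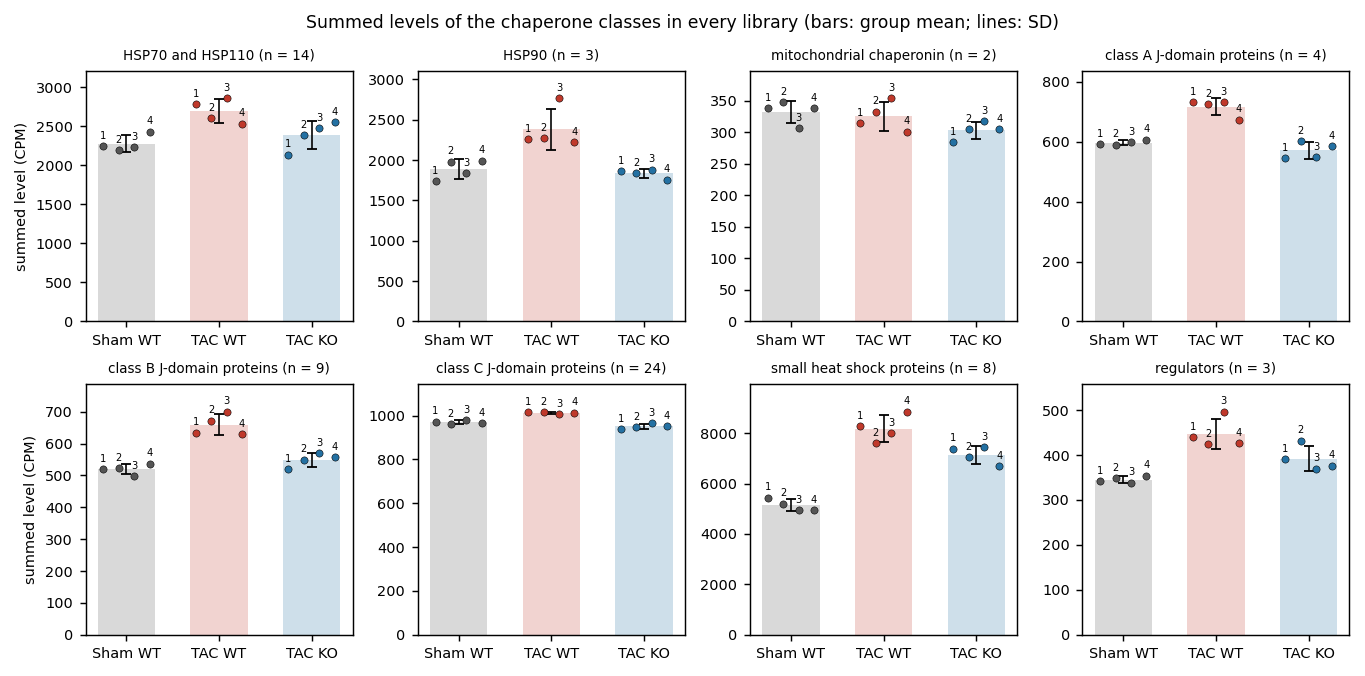
Summed level in CPM (vertical axes, from 0) of 8 chaperone classes in the 3 groups; points are libraries numbered by replicate, bars are group means and lines are SD (n = 4). All 4 TAC WT and all 4 TAC KO libraries lie above all Sham WT libraries for the small heat shock proteins, whereas the HSP90 and class A sums of TAC KO overlap those of Sham WT.

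On a per-length scale in Sham WT, where levels of different genes can be compared, Cryab led with 884.1 CPM per kilobase of annotated exon, followed by Hspb7 with 826.2, Hsp90ab1 with 488.7, Hspb6 with 407.7 and Hspb8 with 221.1. Thus 4 of the 5 highest members were small heat shock proteins. The mitochondrial HSP70 Hspa9 (186.6) and the endoplasmic reticulum HSP70 Hspa5 (131.7) came next, ahead of the constitutive cytosolic HSP70 Hspa8 (104.7). The exon length used is the union over all annotated transcripts, which lowers the value of genes with long minor transcripts.

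After constriction in wild-type hearts, 22 of the 69 members were higher (31.9%, against 9.67% of all tested genes) and 3 were lower (4.35%, against 10% of all tested genes). The higher ones came from most classes and included heat-inducible genes such as Hspa1a and Hsp90aa1, constitutive ones such as Hspa8 and Hsp90ab1, 5 small heat shock proteins and the mitochondrial Dnajc11. The lower ones were Hspa12a, Dnajc4 and Dnajc9. The ranges of TAC WT and Sham WT did not overlap for 31 members (44.9%, against 25.2% of all tested genes). The median log2 difference was 0.13 over the members and below 0.01 in size over all tested genes.

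In the knockout after constriction compared with TAC WT, the direction was mostly opposite: 24 members were lower (34.8%, against 17.3% of all tested genes) and 4 were higher (5.8%, against 15.7%). The ranges did not overlap for 26 members (37.7%, against 27.8%), and the median log2 difference over the members was -0.11. Both contrasts share the TAC WT libraries, so the members called in both serve only to group the genes and their number is not a result. The 16 members higher in TAC WT than in Sham WT and lower in TAC KO than in TAC WT were Hspa1a, Hspa1b, Hspa1l, Hspa4, Hsph1, Hsp90aa1, Hsp90ab1, Dnaja1, Dnaja4, Dnajb4, Dnajc2, Dnajc27, Bag3, Cryab, Hspb1 and Hspb6. The other 6 of the 22 higher members, Hspa8, Dnajb1, Dnajb5, Dnajc11, Hspb7 and Hspb8, were not called in that comparison.

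TAC KO and Sham WT differ in surgery and genotype at once, and their contrast shares libraries with both contrasts above. Here 10 members were higher (14.5%, against 12.8% of all tested genes) and 6 were lower (8.7%, against 14.8%), so the share of higher members was near the background and that of lower members below it. The ranges did not overlap for 16 members (23.2%, against 30.3%). The 16 members grouped above were picked through the TAC WT libraries, so their calls here only describe them. Of these, Hspa1l, Cryab, Hspb1 and Hspb6 were called higher in TAC KO than in Sham WT, and the rest were not called. A missing call is not equality: the 95% intervals of Hspa1a (0.15 to 1.91) and Hspa1b (0.16 to 1.82) were wholly positive. Once the GC and length trends of each library were removed, 9 of the 16 calls in this contrast were lost, among them those of Hspa1l, Cryab and Hspb1. The same correction ended 5 of the 28 calls between TAC KO and TAC WT, and kept all 25 calls between TAC WT and Sham WT. It also added calls, 9 between TAC KO and Sham WT, 5 between TAC KO and TAC WT (Dnajb1, Dnajb11, Dnajc15, Hsf2 and Hspb2) and 1 between TAC WT and Sham WT (Hspe1).

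**Figure D2:**
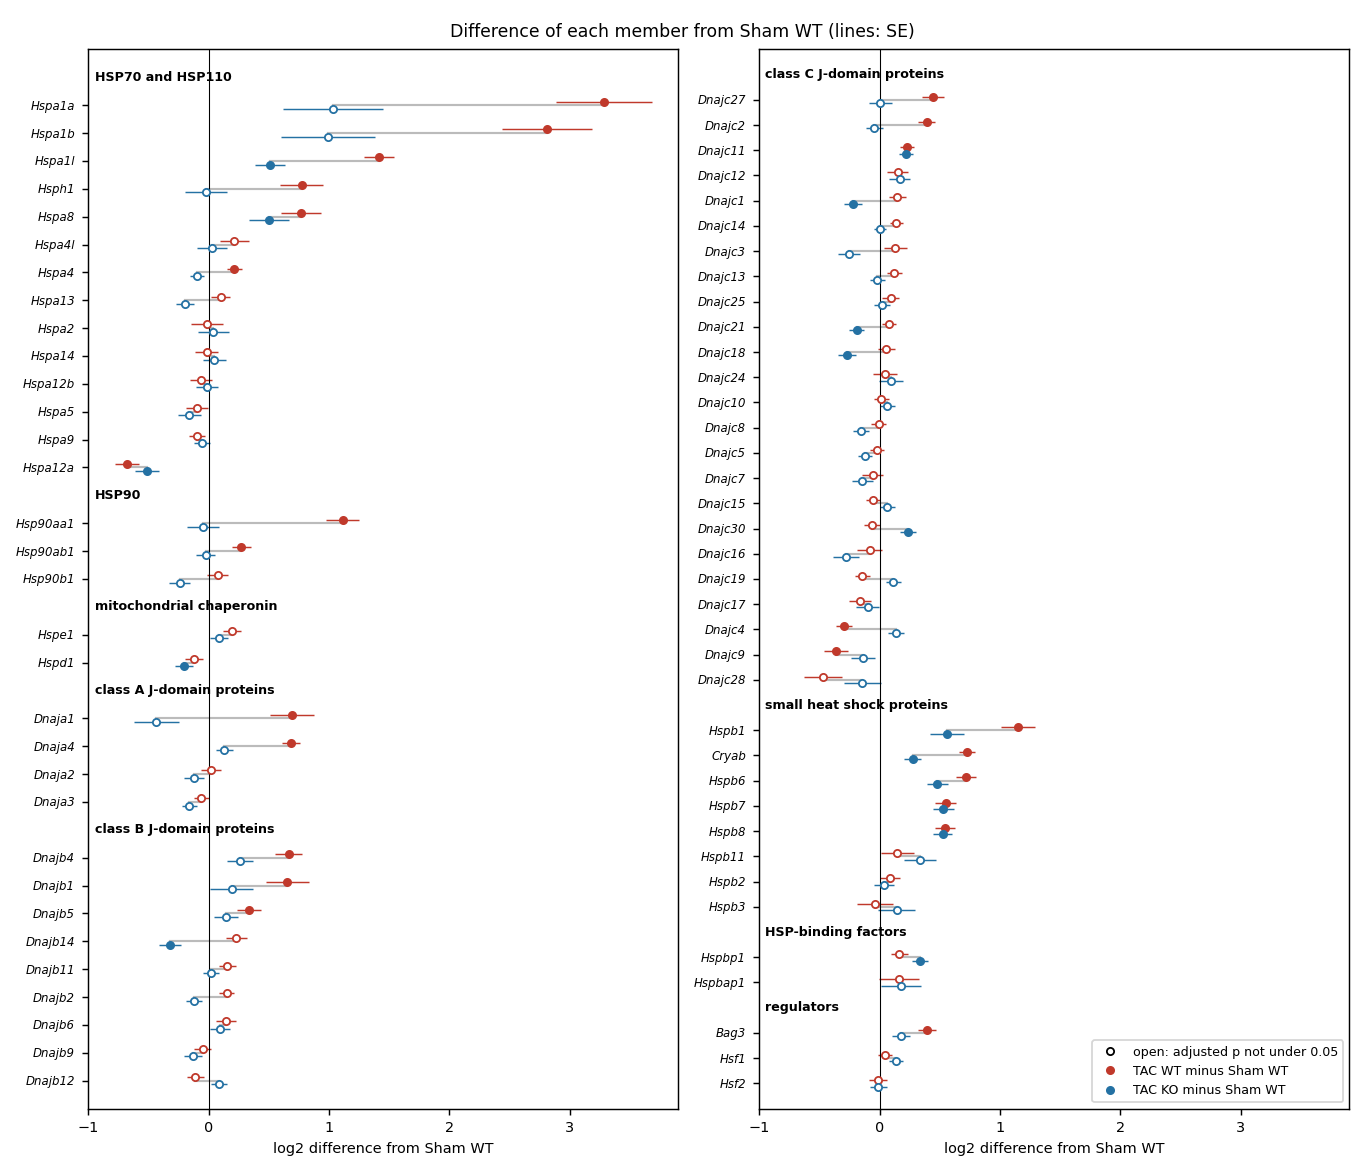
Log2 difference from Sham WT (horizontal axes) of each of the 69 members, by role, in TAC WT (red) and TAC KO (blue); lines are SE and filled points have an adjusted p under 0.05. Hsp90aa1, Hsph1, Dnaja1 and Dnajc2 return to or past 0 in TAC KO, whereas the red and blue points of Hspb7 and Hspb8 coincide at 0.52 to 0.55.

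Among the HSP70 and HSP110 genes, 6 of 14 were higher in TAC WT than in Sham WT (42.9%, against 9.67% of all tested genes). In TAC KO compared with TAC WT, 6 of 14 were lower (42.9%, against 17.3%). Hspa1a, the main heat-inducible HSP70 (17:34969190-34972156, minus strand), stood at 1.80, 2.73, 1.47 and 3.01 CPM in the Sham WT libraries, 11.9, 19.1, 39.9 and 18.5 in TAC WT, against 1.995, 4.79, 7.01 and 4.64 in TAC KO. All TAC WT values were above all others, the highest being library TAC WT 3, and TAC KO overlapped Sham WT. On the log2 scale the difference was 3.28 ± 0.40 (SE, adjusted p = 7.98e-05) between TAC WT and Sham WT, a 9.74-fold difference, and -2.25 ± 0.37 (adjusted p = 0.000587) between TAC KO and TAC WT. Between TAC KO and Sham WT it was 1.03 ± 0.41, with a 95% interval from 0.15 to 1.91 and an adjusted p of 0.0761. Without library TAC WT 3 the log2 differences of Hspa1a were 2.85 and -1.82. The difference between TAC KO and Sham WT passed the threshold without library TAC KO 1 (1.29, adjusted p = 0.0288), in a fit of those 2 groups alone (adjusted p = 0.0348) and with no filter on low counts (adjusted p = 0.00695).

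Hspa1b, the tandem copy of Hspa1a (17:34956436-34959238, minus strand), shares 99.36% of aligned transcript bases with it, so the counting could have split reads between them. The sum of both was 3.37 to 5.51 CPM in Sham WT, 19.2 to 64.0 in TAC WT, against 4.66 to 14.7 in TAC KO, and TAC WT did not overlap either group. Hspa1b by itself had 1.77, 2.17, 1.90 and 2.50 CPM in Sham WT, 7.29, 13.5, 24.1 and 15.2 in TAC WT, against 2.66, 2.52, 7.67 and 3.80 in TAC KO, where library TAC KO 3 exceeded library TAC WT 1. It differed by 2.81 ± 0.37 (adjusted p = 0.000157) between TAC WT and Sham WT and by -1.82 ± 0.35 (adjusted p = 0.00155) between TAC KO and TAC WT.

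Hspa1l, the third gene of this cluster and a constitutive HSP70 best known from testis (17:34972703-34979285, plus strand), was the member with the smallest adjusted p after constriction. It measured 9.95, 10.7, 12.5 and 14.6 CPM in Sham WT, 33.9, 32.0, 31.1 and 33.1 in TAC WT, against 13.3, 17.7, 19.7 and 17.9 in TAC KO. The TAC WT libraries formed a tight group far above both others. Its log2 differences were 1.42 ± 0.12 (adjusted p = 8.1e-06) and -0.91 ± 0.12 (adjusted p = 0.000168). Of its exon bases, 71.9% are shared with Gm10501 on the other strand, and because the strand setting of the counting is not given in the sources used here, reads of the 2 genes cannot be told apart with certainty.

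The HSP110 proteins Hsph1 and Hspa4 exchange the nucleotide of HSP70. Hsph1 (5:149614287-149636376, minus strand) had 50.7, 88.6, 70.0 and 91.0 CPM in Sham WT, 111.6, 149.8, 157.1 and 106.4 in TAC WT, against 83.4, 63.8, 87.2 and 66.6 in TAC KO, so TAC WT was above both other groups, which overlapped. Its log2 difference was 0.77 ± 0.18 (adjusted p = 0.00687) after constriction and -0.79 ± 0.18 (adjusted p = 0.00399) in the knockout. Against Sham WT the knockout value was -0.02, with a 95% interval from -0.40 to 0.36. Hspa4 had 217.6, 216.2, 203.3 and 205.0 CPM in Sham WT, 266.7, 250.2, 238.0 and 246.3 in TAC WT, against 187.4, 200.4, 210.5 and 201.0 in TAC KO. TAC WT again lay above both groups, by less than for Hsph1. The log2 differences of Hspa4 were 0.21 ± 0.06 (adjusted p = 0.0234) and -0.31 ± 0.06 (adjusted p = 0.0018). The first call was lost without Sham WT 3 (adjusted p = 0.0721), Sham WT 4 (0.0638) or TAC WT 1 (0.0778). It was also lost with no filter on low counts.

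Hspa8, the constitutive cytosolic HSP70, was high in most knockout libraries: 370.9, 361.3, 492.6 and 577.1 CPM in Sham WT, 915.3, 654.0, 869.3 and 705.7 in TAC WT, against 468.5, 715.8, 668.4 and 725.4 in TAC KO. Library TAC KO 1 lay within the Sham WT range and the other 3 knockout libraries lay above it. In the fit the log2 difference was 0.77 ± 0.17 (adjusted p = 0.00543) after constriction. In the contrast of TAC KO and TAC WT it was -0.27 ± 0.17, with a 95% interval from -0.63 to 0.09 (adjusted p = 0.241). Against Sham WT it was 0.50 ± 0.17 (adjusted p = 0.0393), which missed the threshold when any of Sham WT 1, 2 or 3 or TAC KO 2, 3 or 4 was omitted (adjusted p from 0.0589 to 0.107).

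The organelle HSP70s Hspa5 and Hspa9 were not called in any contrast. Hspa5, the HSP70 of the endoplasmic reticulum, measured 557.2 ± 35.2, 534.6 ± 44.3 and 505.2 ± 68.3 CPM in Sham WT, TAC WT and TAC KO, and Hspa9, that of mitochondria, measured 804.2 ± 43.4, 770.8 ± 43.3 and 784.8 ± 24.6. The 95% interval of the difference between TAC WT and TAC KO ran from -0.27 to 0.14 for Hspa5 and from -0.11 to 0.19 for Hspa9 on the log2 scale. Hspa12a, an atypical HSP70, went the other way from the family and was lower in both constricted groups. It had 42.8, 42.4, 36.8 and 39.2 CPM in Sham WT, 28.1, 25.3, 27.5 and 22.0 in TAC WT, against 29.4, 32.3, 23.9 and 29.3 in TAC KO, with every Sham WT library above every other. Its log2 difference from Sham WT was -0.68 ± 0.10 (adjusted p = 0.000376) in TAC WT and -0.51 ± 0.10 (adjusted p = 0.00239) in TAC KO. Hspa13, a microsomal relative, was lower in TAC KO than in TAC WT by 0.30 on the log2 scale (log2 = -0.30 ± 0.08, adjusted p = 0.0102), a call that ended once GC and length trends were removed (adjusted p = 0.477).

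All 3 HSP90 genes were lower in TAC KO than in TAC WT (100%, against 17.3% of all tested genes). Hsp90aa1, the stress-inducible cytosolic form (12:110690605-110702728, minus strand), had 83.2, 95.5, 102.0 and 109.0 CPM in Sham WT, 195.9, 198.2, 267.0 and 203.2 in TAC WT, against 74.5, 89.3, 113.6 and 105.5 in TAC KO. The lowest TAC WT library, at 195.9 CPM, was well above the highest of the other groups, at 113.6. The log2 difference was 1.11 ± 0.13 (adjusted p = 7.7e-05) after constriction and -1.16 ± 0.13 (adjusted p = 6.16e-05) in the knockout. Between TAC KO and Sham WT it was -0.05, with a 95% interval from -0.33 to 0.24. Processed copies of this gene, Gm12346 and Gm5844, drew 374 and 44 counts over all libraries beside its 53353.

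Hsp90ab1, the constitutive cytosolic form and the more abundant one, repeated the pattern at a smaller size, with 1346, 1557, 1428 and 1532 CPM in Sham WT, 1718, 1755, 2090 and 1692.6 in TAC WT, against 1530, 1496, 1477 and 1349 in TAC KO. TAC WT lay above both groups, with library TAC WT 3 far above the other 3. The log2 differences were 0.27 ± 0.08 (adjusted p = 0.0243) and -0.30 ± 0.08 (adjusted p = 0.0102). The first call was lost without Sham WT 1 (adjusted p = 0.0608), Sham WT 3 (0.0707) or TAC WT 3 (0.0583). Hsp90b1, the form of the endoplasmic reticulum, did not pass the test after constriction (log2 = 0.07 ± 0.09) but was lower in the knockout, at 323.9 ± 22.4, 350.2 ± 41.7 and 277.8 ± 23.2 CPM (log2 = -0.32 ± 0.09, adjusted p = 0.0139). Once GC and length trends were taken out that adjusted p was 0.0504.

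The J-domain proteins of class A include Dnaja1, a cytosolic HSP70 partner (4:40722150-40737149, plus strand). It had 31.9, 30.0, 32.6 and 46.1 CPM in Sham WT, 46.5, 56.9, 71.6 and 57.0 in TAC WT, against 17.9, 23.3, 32.6 and 31.0 in TAC KO. The groups TAC WT and Sham WT nearly touched, at 46.5 and 46.1 CPM, and all knockout libraries were below all TAC WT libraries. On the log2 scale the difference was 0.69 ± 0.18 (adjusted p = 0.0164) after constriction, which missed the threshold when library Sham WT 2 was omitted (adjusted p = 0.0524). In the contrast of TAC KO and TAC WT it was -1.13 ± 0.19 (adjusted p = 0.000615). The difference between TAC KO and Sham WT was -0.44, with a 95% interval from -0.83 to -0.04 and an adjusted p of 0.0946.

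Dnaja4, another class A protein (9:54698873-54716315, plus strand), had narrow groups: 125.3, 134.5, 143.2 and 149.2 CPM in Sham WT, 237.6, 218.5, 234.9 and 219.6 in TAC WT, against 141.0, 159.1, 149.2 and 162.8 in TAC KO. Only TAC WT stood apart. Its log2 differences were 0.68 ± 0.07 (adjusted p = 2.79e-05) and -0.56 ± 0.07 (adjusted p = 0.000127). Of its exon bases 44.1% are shared with Wdr61 on the other strand, which drew 8322 counts beside the 67632 of Dnaja4. Dnaja2 and the mitochondrial Dnaja3 were not called in any contrast, with log2 differences between -0.16 and 0.02. Dnaja3 was lower in TAC KO than in Sham WT once GC and length trends were taken out (log2 = -0.19, adjusted p = 0.0256).

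**Figure D3:**
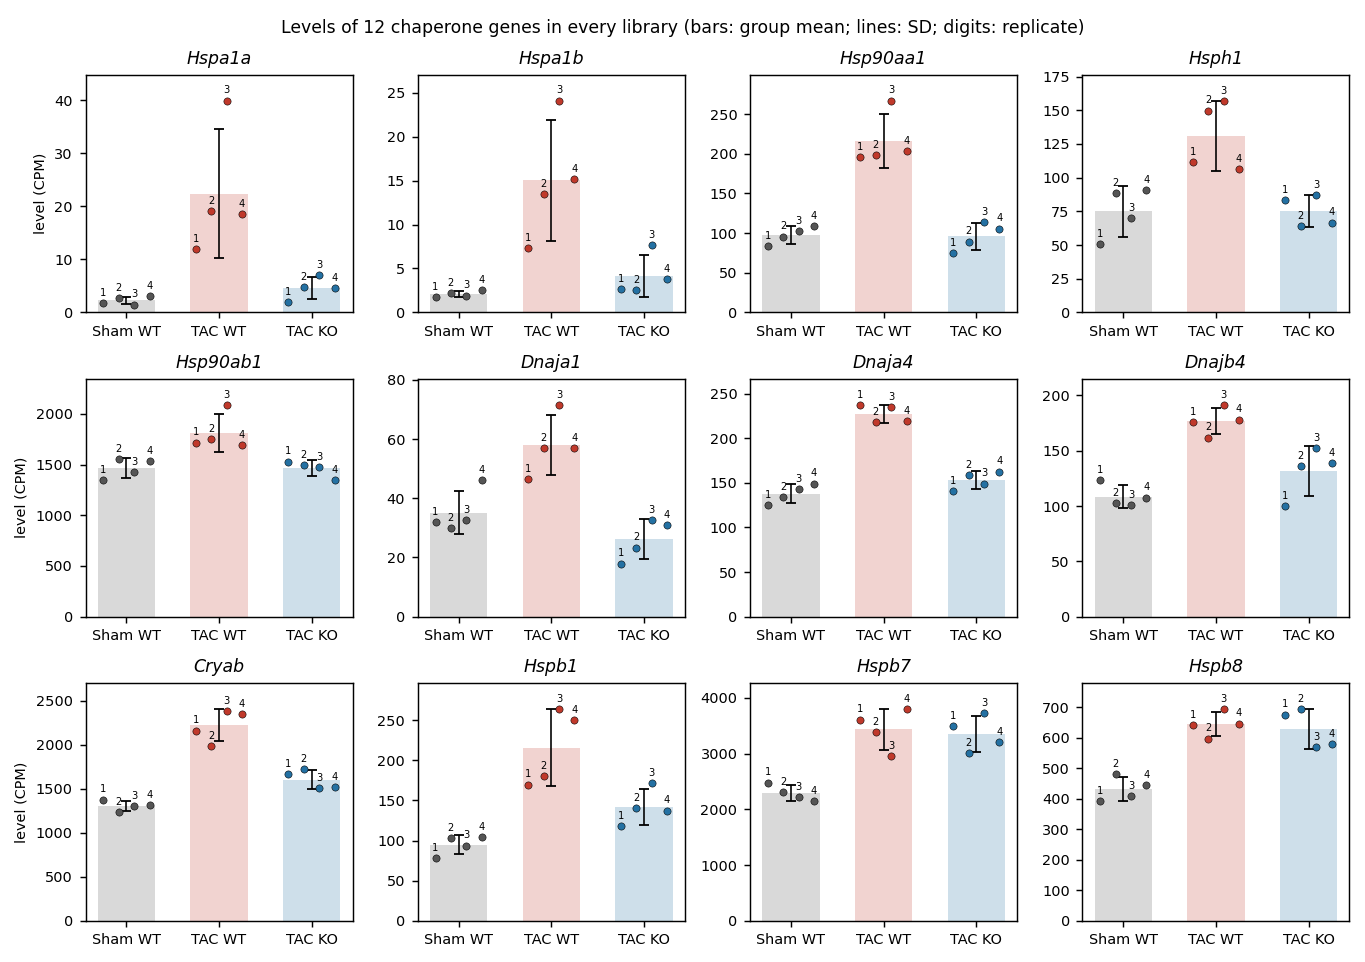
Level in CPM (vertical axes, from 0) of 12 members in every library; points are libraries numbered by replicate, bars are group means and lines are SD (n = 4). TAC WT stands above Sham WT in all 12 panels, and TAC KO overlaps Sham WT for Hsp90aa1, Hsph1 and Hsp90ab1 but not for Hspb7 and Hspb8.

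Class B J-domain proteins deliver clients to HSP70 and several are heat-inducible. Dnajb4 had 123.5, 102.4, 100.8 and 107.6 CPM in Sham WT, 176.0, 161.9, 191.5 and 178.1 in TAC WT, against 99.9, 136.1, 152.7 and 138.9 in TAC KO. All TAC WT values exceeded all others. Its log2 difference was 0.67 ± 0.11 (adjusted p = 0.000907) after constriction and -0.41 ± 0.11 (adjusted p = 0.0127) in the knockout. Once GC and length trends were taken out the second call ended (adjusted p = 0.155) and the difference between TAC KO and Sham WT, 0.26 without the correction, passed the test at 0.45 (adjusted p = 0.00634).

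Dnajb1, the best known heat-inducible J-domain protein of the cytosol, had 19.9, 15.7, 14.8 and 21.6 CPM in Sham WT, 21.03, 34.0, 26.3 and 34.9 in TAC WT, against 18.5, 16.0, 23.9 and 24.7 in TAC KO. Its ranges in TAC WT and Sham WT overlapped, since library TAC WT 1 had 21.03 CPM and library Sham WT 4 had 21.6. In the fit the log2 difference was 0.65 ± 0.18 (adjusted p = 0.0188), and the call was lost without Sham WT 2 (adjusted p = 0.0573), Sham WT 3 (0.0629) or TAC WT 4 (0.0557). Between TAC KO and TAC WT it was -0.46 ± 0.18 (adjusted p = 0.0576), a value that passed the threshold with DESeq2 and under 4 other alternatives. Dnajb5 was higher in TAC WT (0.34 ± 0.10, adjusted p = 0.0282), a call that needed each of Sham WT 1 (0.0697 without it), Sham WT 3 (0.0876), TAC WT 2 (0.0690) and TAC WT 3 (0.0722).

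The remaining class B members called in the knockout sit mostly at the endoplasmic reticulum. Dnajb14, a J-domain protein of its membrane, had 24.2, 27.4, 27.7 and 28.6 CPM in Sham WT, 30.8, 33.1, 34.1 and 31.7 in TAC WT, against 17.96, 22.4, 24.7 and 22.4 in TAC KO. It was lower in TAC KO than in TAC WT (log2 = -0.55 ± 0.09, adjusted p = 0.00059) with no overlap. Its call against Sham WT (log2 = -0.32 ± 0.09, adjusted p = 0.0174) ended without Sham WT 4 (adjusted p = 0.0558) and with the GC and length correction (adjusted p = 0.348). Dnajb2, which carries ubiquitin-binding motifs, was lower by 0.27 (log2 = -0.27 ± 0.07, adjusted p = 0.00634). Dnajb12, the close relative of Dnajb14, was instead higher (0.20 ± 0.07, adjusted p = 0.0413), and this call was lost under 9 of 16 alternatives, including the omission of TAC WT 1, 3 or 4 or TAC KO 1, 2 or 4 (adjusted p from 0.0513 to 0.304 over the 9).

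Class C is the largest and most varied class, in which the J domain is joined to unrelated parts. Only 3 of its 24 members were higher in TAC WT (12.5%), close to the 9.67% of all tested genes, and 2 were lower (8.33%, against 10%). In TAC KO compared with TAC WT, 6 were lower (25%, against 17.3%) and 3 were higher (12.5%, against 15.7%). Dnajc2, a ribosome-associated chaperone, had 28.5, 29.8, 32.3 and 32.4 CPM in Sham WT, 39.7, 37.4, 45.3 and 43.5 in TAC WT, against 27.7, 30.8, 32.3 and 30.3 in TAC KO. TAC WT stood above both other groups, with log2 differences of 0.39 ± 0.07 (adjusted p = 0.00151) and -0.44 ± 0.07 (adjusted p = 0.00057). Dnajc27, in which the J domain is joined to a Rab-like GTPase, was at 18.9 ± 1.53, 26.4 ± 3.14 and 19.3 ± 1.15 CPM, with log2 differences of 0.44 ± 0.09 (adjusted p = 0.00437) and -0.44 ± 0.09 (adjusted p = 0.00321). In TAC KO both overlapped Sham WT. Dnajc11, a protein of mitochondrial membranes, had 76.0, 78.1, 75.2 and 77.1 CPM in Sham WT, 96.1, 95.8, 86.1 and 89.4 in TAC WT, against 97.1, 85.9, 92.3 and 87.2 in TAC KO. It was higher than in Sham WT in both constricted groups, by 0.23 ± 0.06 (adjusted p = 0.0141) and 0.22 ± 0.06 (adjusted p = 0.013). The 95% interval of its log2 difference between TAC KO and TAC WT ran from -0.13 to 0.12.

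Class C members that were lower in TAC KO without having been called after constriction were Dnajc1, Dnajc3, Dnajc18 and Dnajc21, with log2 differences between -0.39 and -0.27. Dnajc1 had 28.9, 29.0, 35.1 and 31.5 CPM in Sham WT, 34.9, 31.8, 35.8 and 39.4 in TAC WT, against 28.2, 25.6, 28.8 and 25.9 in TAC KO. Dnajc18 had 31.5, 33.9, 31.8 and 30.7 CPM in Sham WT, 35.8, 36.3, 29.6 and 34.6 in TAC WT, against 28.7, 25.6, 26.6 and 26.8 in TAC KO. For both genes all knockout libraries were below all TAC WT libraries. Dnajc3 is a cochaperone in the lumen of the endoplasmic reticulum and Dnajc21 takes part in ribosome assembly. Dnajc19 and Dnajc30 of the mitochondrial inner membrane were higher in TAC KO, by 0.26 ± 0.06 (adjusted p = 0.0065) and 0.30 ± 0.07 (adjusted p = 0.00363). Dnajc30 had 30.1, 30.6, 29.4 and 27.8 CPM in Sham WT, 28.9, 28.4, 31.3 and 27.2 in TAC WT, against 37.8, 35.8, 32.7 and 34.7 in TAC KO, the knockouts being above all others. It shares 26.2% of its exon bases with Bud23 on the other strand, and its call ended once GC and length trends were taken out (adjusted p = 0.118). Dnajc4 mirrored the family, with 28.8, 24.7, 27.5 and 25.2 CPM in Sham WT, 22.4, 21.1, 22.0 and 23.4 in TAC WT, against 32.8, 27.8, 28.5 and 29.5 in TAC KO. TAC WT was below both groups, with log2 differences of -0.29 ± 0.07 (adjusted p = 0.00725) and 0.43 ± 0.07 (adjusted p = 0.000468). Dnajc9, a histone chaperone, was lower after constriction (log2 = -0.36 ± 0.10, adjusted p = 0.0202), a call that needed each of Sham WT 1 (adjusted p = 0.0659 without it), TAC WT 1 (0.0593) and TAC WT 4 (0.0568).

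Of the 8 members placed by symbol alone in the class of small heat shock proteins, 5 were higher in TAC WT than in Sham WT. The same number were higher in TAC KO than in Sham WT (62.5% each, against 9.67% and 12.8% of all tested genes). This class was the only one with a median difference above 0.3 in both constricted groups, 0.54 in TAC WT, against 0.41 in TAC KO. The 5 genes were Cryab, Hspb1, Hspb6, Hspb7 and Hspb8, and they differed among themselves in what the knockout showed. Hspb2, Hspb3 and Hspb11 were not called in any contrast, although Hspb2 was lower in TAC KO than in TAC WT once GC and length trends were taken out (log2 = -0.24, adjusted p = 0.0172). Hspb2 shares 30.2% of its exon bases with Cryab on the other strand, and its levels were 61.1 ± 3.33, 66.8 ± 9.13 and 63.8 ± 4.41 CPM.

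Cryab, the lens and muscle crystallin that guards desmin and titin (9:50751325-50756636, plus strand), had 1376, 1232, 1307 and 1315 CPM in Sham WT, 2162, 1989, 2386 and 2351 in TAC WT, against 1667, 1723, 1508 and 1522 in TAC KO. The 3 groups did not overlap, with the knockout between the others. The log2 difference was 0.73 ± 0.07 (adjusted p = 1.44e-05) after constriction and -0.45 ± 0.07 (adjusted p = 0.000414) in the knockout. Against Sham WT the knockout value of 0.27 ± 0.07 (adjusted p = 0.0108) fell to 0.10 (adjusted p = 0.279) once GC and length trends were taken out.

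Hspb1, the heat-inducible small heat shock protein of many tissues (5:135887919-135889563, plus strand), had 78.5, 102.8, 93.8 and 104.0 CPM in Sham WT, 169.7, 180.2, 263.9 and 250.3 in TAC WT, against 118.3, 140.6, 171.5 and 137.3 in TAC KO. The knockout libraries lay above Sham WT and overlapped TAC WT at library TAC KO 3. The log2 differences were 1.15 ± 0.14 (adjusted p = 0.000105) and -0.59 ± 0.14 (adjusted p = 0.00664). Against Sham WT the difference was 0.56 ± 0.14 (adjusted p = 0.0107), and 0.35 (adjusted p = 0.0889) once GC and length trends were taken out.

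Hspb6, a partner of contractile proteins, had 1037, 1002, 837.1 and 872.3 CPM in Sham WT, 1609, 1378, 1621 and 1724 in TAC WT, against 1347, 1396, 1401 and 1170 in TAC KO. Both constricted groups were above Sham WT and overlapped each other. On the log2 scale the difference was 0.72 ± 0.09 (adjusted p = 7.34e-05) after constriction and 0.48 ± 0.09 (adjusted p = 0.0012) between TAC KO and Sham WT. The call between TAC KO and TAC WT (log2 = -0.24 ± 0.09, adjusted p = 0.0448) was lost under 10 of 16 alternatives, including the omission of TAC WT 1, 3 or 4 or TAC KO 1, 3 or 4 (adjusted p from 0.053 to 0.129 over the 10).

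Hspb7, a muscle-specific member that binds filamin (4:141420779-141425311, plus strand), was not called between TAC KO and TAC WT. It had 2479, 2315, 2214 and 2143 CPM in Sham WT, 3610, 3383, 2954 and 3797 in TAC WT, against 3493, 3003, 3731 and 3203 in TAC KO. Library TAC WT 3, the highest TAC WT library for Hspa1a and Hsp90aa1, was the lowest for Hspb7. The log2 difference from Sham WT was 0.55 ± 0.09 (adjusted p = 0.000545) in TAC WT and 0.53 ± 0.09 (adjusted p = 0.000642) in TAC KO. In the contrast of TAC KO and TAC WT it was -0.02, with a 95% interval from -0.20 to 0.16, or 0.870-fold to 1.12-fold.

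Hspb8, which works with Bag3 in the disposal of damaged filamin (5:116408491-116422864, minus strand), had 391.9, 479.8, 409.2 and 443.6 CPM in Sham WT, 641.4, 596.9, 692.8 and 646.6 in TAC WT, against 675.6, 694.1, 568.9 and 578.4 in TAC KO. Both constricted groups were above Sham WT. The log2 difference from Sham WT was 0.54 ± 0.08 (adjusted p = 0.000424) in TAC WT and 0.52 ± 0.08 (adjusted p = 0.000527) in TAC KO, and between those groups it was -0.02, with a 95% interval from -0.19 to 0.16. In the same contrast the 95% interval ran from -1.44 to -0.87 for Hsp90aa1, from -1.52 to -0.73 for Dnaja1, from -0.89 to -0.28 for Hspb1 and from -0.84 to -0.08 for Dnajb1, which was not called. The difference between genes in their response was not itself tested.

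Bag3, the HSP70 nucleotide exchange factor that links Hspb8 to HSP70 (7:128523616-128546981, plus strand), had 280.8, 286.6, 277.7 and 290.3 CPM in Sham WT, 375.0, 362.9, 428.7 and 363.6 in TAC WT, against 324.1, 366.7, 301.1 and 308.4 in TAC KO. TAC KO lay above Sham WT and overlapped TAC WT. In the fit the log2 difference was 0.39 ± 0.07 (adjusted p = 0.00208) after constriction. In the knockout it was -0.22 ± 0.07 (adjusted p = 0.0352), a call lost under 8 of 16 alternatives, including the omission of TAC WT 1 or 3 or TAC KO 1, 3 or 4 (adjusted p from 0.0526 to 0.0963 over the 8).

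The mRNAs of the transcription factors themselves were not called in any contrast of the main edgeR fit. Hsf1 was at 44.2 ± 1.63, 46.7 ± 2.59 and 49.4 ± 1.62 CPM, with log2 differences of 0.04 after constriction and 0.10 in the knockout, neither called. Between TAC KO and Sham WT the log2 difference of Hsf1 was 0.14, with a 95% interval from 0.02 to 0.26. That value missed the threshold in the main fit (adjusted p = 0.088) and passed it with limma voom (adjusted p = 0.0376). Hsf2 was at 17.6 ± 0.277, 17.9 ± 1.56 and 17.7 ± 1.41 CPM, and its log2 difference between TAC KO and TAC WT was 0.01, or 0.34 (adjusted p = 0.00185) once GC and length trends were taken out. The mitochondrial chaperonin, a folding chamber built of Hspd1 with its lid Hspe1, was the remaining class. Hspd1 measured 279.4 ± 17.4, 263.0 ± 17.4 and 245.7 ± 11.7 CPM, and its log2 difference of -0.21 ± 0.07 between TAC KO and Sham WT (adjusted p = 0.046) was lost under 11 of 16 alternatives, including the omission of Sham WT 1, 2 or 4 or any TAC KO library (adjusted p from 0.0519 to 0.127 over the 11). Hspe1 measured 53.6 ± 2.67, 62.8 ± 6.95 and 57.8 ± 2.50 CPM and was not called, although its log2 difference of 0.19 between TAC WT and Sham WT passed once GC and length trends were taken out (adjusted p = 0.0396). Hspbp1, an exchange factor of HSP70, had 31.7, 28.4, 28.6 and 26.7 CPM in Sham WT, 34.5, 33.5, 31.9 and 32.8 in TAC WT, against 40.6, 34.4, 35.9 and 37.1 in TAC KO. The knockout libraries were above all Sham WT libraries (0.33 ± 0.07, adjusted p = 0.00283), and this call ended once GC and length trends were taken out (adjusted p = 0.187).

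**Figure D4:**
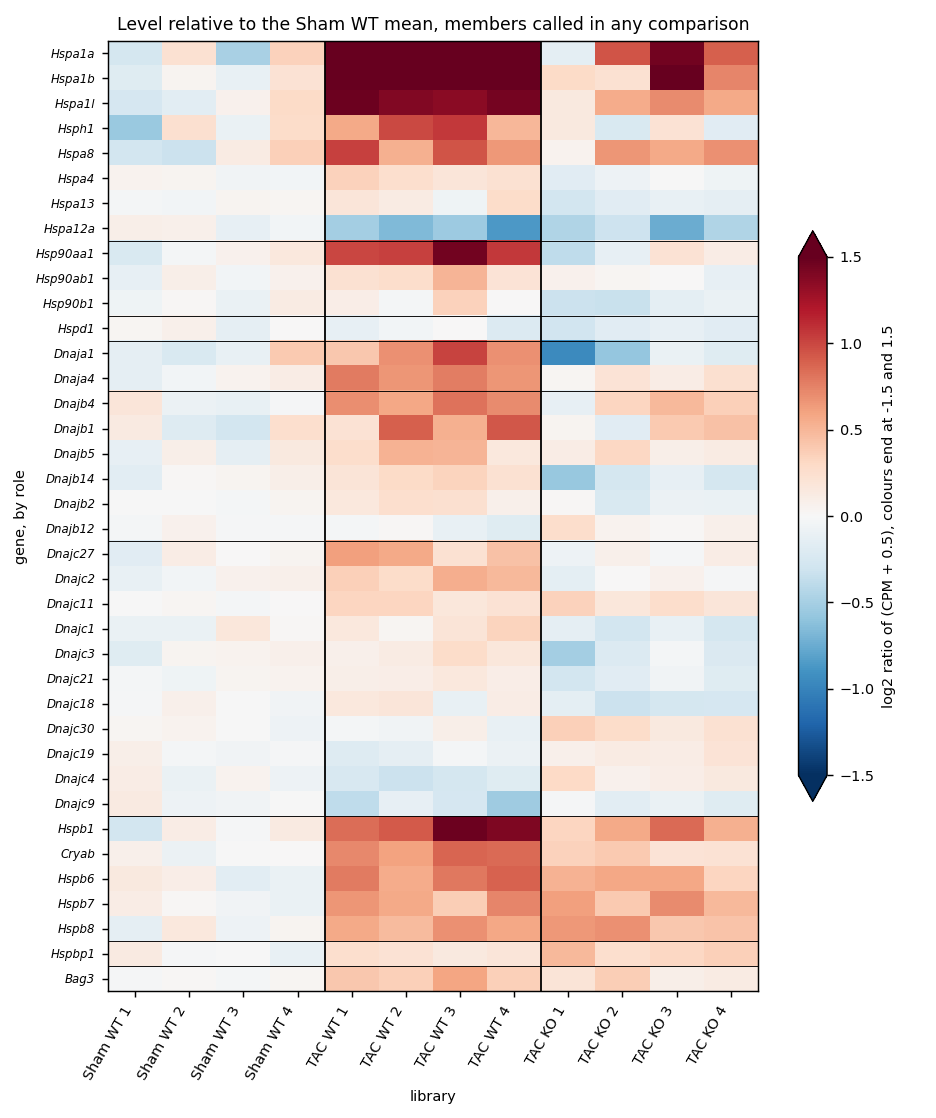
Level of the 38 members called in any contrast (rows, grouped by role) in each of the 12 libraries (columns), as the log2 ratio of CPM + 0.5 to the Sham WT mean; colours end at -1.5 and 1.5. The Hsp90aa1 row is red in TAC WT and between -0.385 and 0.22 in TAC KO, the Hspa1a row is still red in TAC KO 2 to 4, at 0.90 to 1.45, the Dnaja1 row is blue in TAC KO 1 and 2, at -0.952 and -0.583, and the Hspb7 and Hspb8 rows stay red in both.

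Library TAC WT 3 was the highest of the 4 TAC WT libraries for 11 of the 16 members that were higher after constriction and lower in the knockout. Without it, 20 members were higher in TAC WT than in Sham WT and 24 were lower in TAC KO than in TAC WT, against 22 and 24 with it. Immediate early genes, transcription factors and others induced quickly by many stimuli, moved with these members. Of 15 tested, 8 were higher in TAC WT (53.3%, against 9.67% of all tested genes) and 7 were lower in TAC KO than in TAC WT (46.7%, against 17.3%), with median log2 differences of 0.60 and -0.58. Their summed level was 613.4 to 980.4 CPM in Sham WT, 971.2 to 1305 in TAC WT, against 630.8 to 890.9 in TAC KO. Macrophage markers rose in the knockout, with 4 of 6 called (66.7%, against 15.7%) and 149.6 to 195.8 CPM in sum against 96.5 to 145.1 in TAC WT, and fibroblast markers ran from 644.1 to 733.0 CPM in Sham WT, 757.1 to 1102 in TAC WT, against 840.7 to 1229 in TAC KO. Genes listed as skeletal muscle markers, of which 4 of 8 were tested, summed to 2277 to 2669 CPM in Sham WT, 7305 to 10580 in TAC WT, against 5301 to 6700 in TAC KO. That list includes Ckm and Acta1, and whether its sum comes from skeletal or heart muscle was not tested. The part of these lists in the results on chaperones was not tested.

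Other genes of the folding network were followed as lists, some of which share genes. Values of these lists and of those above come from the main fit only. The calls of listed genes were not looked at with GC and length trends removed. Their shares stand beside 9.67% higher and 10% lower of all tested genes in TAC WT against Sham WT, and 15.7% higher and 17.3% lower in TAC KO against TAC WT. Of 18 cochaperones of HSP90, 5 were higher (27.8%) and 2 lower (11.1%) after constriction, and 5 were higher and 5 lower in the knockout (27.8% each). Ptges3, the p23 cochaperone, was at 35.95, 47.2 and 35.8 CPM on average in Sham WT, TAC WT and TAC KO, with log2 differences of 0.35 ± 0.07 (adjusted p = 0.00212) and -0.38 ± 0.07 (adjusted p = 0.000948). Ppid, a cyclophilin bound to HSP90, followed with 0.31 ± 0.08 (adjusted p = 0.0116) and -0.47 ± 0.08 (adjusted p = 0.000676). Chordc1 went furthest below, at 48.3, 61.1 and 34.3 CPM, and was lower in TAC KO than in Sham WT as well (log2 = -0.51 ± 0.09, adjusted p = 0.00139). The phosphatase Ppp5c moved the other way, with -0.20 ± 0.06 (adjusted p = 0.0366) and 0.36 ± 0.06 (adjusted p = 0.000904).

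Among 13 exchange factors and adaptors of HSP70, 2 were higher (15.4%) and 1 lower (7.69%) after constriction, and 6 were higher (46.2%) and 2 lower (15.4%) in TAC KO than in TAC WT. Bag2 was higher in TAC WT (0.61 ± 0.10, adjusted p = 0.000837) and in TAC KO (0.49 ± 0.10, adjusted p = 0.00333) than in Sham WT. Grpel1, the exchange factor of mitochondrial HSP70, was higher in TAC KO than in TAC WT (0.35 ± 0.06, adjusted p = 0.000682). It also belongs to the mitochondrial quality control list, where 9 of 12 genes (75.0%) were higher in TAC KO than in TAC WT and 3 (25%) were lower in TAC WT than in Sham WT.

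For the cytosolic chaperonin CCT and prefoldin, 3 of 13 genes (23.1%) were higher after constriction, with Pfdn1 (0.32 ± 0.07, adjusted p = 0.0031) and Cct8 (0.33 ± 0.08, adjusted p = 0.0123) leading. For folding and stress response in the endoplasmic reticulum, 3 of 19 were higher after constriction (15.8%), and 1 was higher (5.26%) and 4 were lower (21.1%) in TAC KO than in TAC WT. Among partners and targets of heat shock factor outside the families, 4 of 16 were higher (25%) and 2 lower (12.5%) after constriction, and 4 were higher and 4 lower in the knockout (25% each). Serpinh1, the collagen chaperone of the endoplasmic reticulum, was at 291.5, 464.2 and 327.5 CPM on average, with log2 differences of 0.63 ± 0.12 (adjusted p = 0.00276) and -0.48 ± 0.12 (adjusted p = 0.009). Ier5, a regulator of heat shock factor 1, was at 36.1, 87.5 and 49.6 CPM, with 1.24 ± 0.14 (adjusted p = 5.13e-05) and -0.80 ± 0.14 (adjusted p = 0.000842).

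Among 6 partners of Bag3 and Hspb8 in chaperone-assisted autophagy, 2 were higher in TAC WT and 2 were higher in TAC KO than in Sham WT (33.3% each, against 9.67% and 12.8% of all tested genes). Flnc, the filamin that this machinery clears from the Z-disc, was at 566.0, 1292 and 816.5 CPM on average. Its log2 differences were 1.15 ± 0.14 (adjusted p = 9.44e-05) after constriction and -0.65 ± 0.14 (adjusted p = 0.00348) in the knockout. Sqstm1, an autophagy receptor, was at 290.8, 393.6 and 442.4 CPM, higher than in Sham WT by 0.40 ± 0.10 (adjusted p = 0.0121) in TAC WT and by 0.58 ± 0.10 (adjusted p = 0.00103) in TAC KO.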

How the data were processed

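Whole gene counts per library were deposited by the authors, 1 file for each of the 12 libraries. The submitters' processing notes name STAR, featureCounts 1.6.4, Trim Galore 0.5.0, StringTie 1.3.5, DESeq2 and build GRCm38, without settings. Annotation release, strand setting and the treatment of reads that match several genes are not given in the sources used here. Symbols were matched with GENCODE M21 (67 records had none). CPM was computed from library totals. The main fit was edgeR 4.0.16 (TMM scaling, low-count filter, quasi-likelihood F-test, Benjamini-Hochberg over all tested genes, R 4.3.3). It was tested on simulated data. Members and lists were chosen with earlier results of these data known. Members are grouped by role, which was read from their symbols. Values in every library are given for the marker genes and for the 12 members with the smallest p in each contrast. They are also given for some other members, but not for all that went against their class. Up to 4 genes with the smallest p are named from each list of other genes. No pair of libraries agreed within counting noise (chi-square per degree of freedom 4.38 to 35.6 within groups). Alternatives were DESeq2, limma voom, RLE and upper-quartile scaling, other low-count filters, a 1.5-fold minimum, fits of 2 groups, removal of GC and length trends, and leaving out each library. The rarest member, Hspbap1, had 1267 counts over the 12 libraries. p-values cover the spread between libraries.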

Additional observations from a re-analysis of the deposited data

Results flagged for a closer look

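In 13 of 207 sets of 4 libraries (6.28%), a single library of a group stood far from the other 3, judged by its gap relative to the range. Chance gives this in about 1 in 20 groups. Library TAC WT 3 was high for Hsp90aa1 (267.0 CPM, the others 195.9 to 203.2), Hsp90ab1 (2090 CPM, the others 1692.6 to 1755) and Dnajc21 (59.7 CPM, the others 56.9 to 57.3), and low for Dnajc13 (36.7 CPM, the others 41.1 to 41.5). Hspa2 was high in TAC WT 4 (10.54 CPM, the others 6.53 to 7.04), and Dnajc24 was low in TAC WT 1 (6.40 CPM, the others 7.95 to 8.18). In Sham WT, library 4 was high for Dnaja1 (46.1 CPM, the others 30.0 to 32.6) and Hspe1 (57.5 CPM, the others 52.1 to 52.3), library 2 was high for Dnajb11 (54.2 CPM, the others 49.5 to 50.3), and library 1 was low for Dnajc3 (54.2 CPM, the others 63.7 to 65.0). In TAC KO, library 2 was high for Dnajb5 (136.4 CPM, the others 117.3 to 119.5) and Dnajc13 (38.8 CPM, the others 34.9 to 35.5), and library 3 was high for Hspe1 (61.5 CPM, the others 56.0 to 56.8).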

How the results depend on the processing

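With a 1.5-fold minimum beside the adjusted p, 13 members were higher and 1 lower in TAC WT than in Sham WT, 0 higher and 7 lower in TAC KO than in TAC WT, and 0 higher and 0 lower in TAC KO than in Sham WT, where edgeR without that minimum called 22, 3, 4, 24, 10 and 6. Leaving out 1 library at a time, the members lower in TAC KO than in Sham WT numbered from 2 (without Sham WT 4) to 6, with 3 without TAC KO 1 or TAC KO 2. The other counts kept within 1.5 times under every alternative run. Of the 25, 28 and 16 calls in the 3 contrasts, 19, 21 and 5 were kept under every alternative without a fold minimum.

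Among the members described above, signs turned for log2 differences near 0 that had not been called. With upper-quartile scaling the value between TAC KO and TAC WT was 0.0077 for Hspb7, 0.0077 for Hspb8 and 0.0205 for Dnajc11, and that between TAC KO and Sham WT was 0.0008 for Hsph1 and 0.0093 for Hsf2. With limma voom it was 0.0057 for Hsf2 between TAC WT and Sham WT, -0.0002 for Hsf2 and 0.0159 for Hspa5 between TAC KO and TAC WT, and 0.0055 for Hsf2 between TAC KO and Sham WT. With a filter of 1 CPM in 4 libraries it was -0.002 for Hsf2 between TAC KO and TAC WT. With GC and length trends removed it was 0.0764 for Dnajc11 between TAC KO and TAC WT, and 0.0894 for Hsph1, 0.0175 for Hsp90aa1, 0.0987 for Dnajc2 and 0.32 for Hsf2 (adjusted p = 0.00285) between TAC KO and Sham WT. The cause was not tested.

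Leaving out 1 library at a time gave, between TAC WT and Sham WT, -0.008 to 0.12 for Hsp90b1 and -0.0399 to 0.0294 for Hsf2. Between TAC KO and TAC WT it gave -0.0378 to 0.0297 for Dnajc11, -0.0395 to 0.0598 for Hsf2, -0.0857 to 0.0232 for Hspb7 and -0.0782 to 0.0325 for Hspb8. Between TAC KO and Sham WT it gave -0.16 to 0.0837 for Hsph1, -0.13 to 0.0713 for Hsp90aa1, -0.0564 to 0.0108 for Hsp90ab1, -0.0701 to 0.0113 for Dnajc2, -0.0391 to 0.0525 for Dnajc27 and -0.0428 to 0.052 for Hsf2. No paired analysis was possible because the labels tie no library of one group to a library of another, and the replicate numbers used here only follow accession order.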
